A study of Sus scrofa with 3 samples.

Results

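The genes described here encode the calcium switch of the muscle thin filament: troponin C (TNNC1 and TNNC2), troponin I (TNNI1 and TNNI2), fast troponin T (TNNT3) and beta-tropomyosin (TPM2). They are 6 of the 6765 genes named on the array. Every probe set that carries 1 of these symbols alone in the platform's gene table was taken, which gave 9 of 23999 probe sets, 1 for each of the 5 troponin genes and 4 for TPM2. RNA came from last deciduous molar germs of the mandible of Wuzhishan miniature pigs, dissected with the dental lamina. The E40 germs were at the cap stage and had no secondary dental lamina, the E50 germs were at the bell stage as that lamina began, and the E60 germs were at the secretory stage with the lamina present. No treatment or allele was named for any group. Germs from 1 litter were pooled for each stage, and each pool was read on 1 Affymetrix Porcine Genome Array. Stage, litter, dissection and array therefore cannot be told apart, there are no replicates and no p-value was computed.

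In striated muscle, tropomyosin lies along the actin filament and covers the sites to which myosin binds. Troponin C takes up calcium, troponin I holds the filament off when calcium is low, and troponin T ties the complex to tropomyosin. Slow-twitch and fast-twitch fibres use different genes for each subunit. TNNC1 also serves the heart, and TNNI1 is also used by fetal muscle. The skeletal troponins are largely restricted to striated muscle, whereas TPM2 is also made in smooth muscle and in other cells from alternatively spliced transcripts.

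Signals are MAS5 values on a linear scale unless log2 is stated, and a change is read between arrays for the same probe set. Levels of different probe sets were not compared as amounts of RNA, although the signals of some lists are summed. A signal below the 25th percentile of its array (29.3 for E40, 17.2 for E50 and 21.8 for E60), called the floor here, was raised to it before a ratio was formed. Such a ratio bounds the change from below and carries the words "at least". No ratio was formed where both signals were below the floor, or where the raised signal overtook the other. A probe set was called lower or higher where the signals differed by over 2-fold. The log2 ratios of probe sets of the same gene differed with an SD of 0.80 from E40 to E50 (1596 genes with at least 2 measured probe sets), of 0.58 from E50 to E60 and of 0.73 from E40 to E60. This SD describes disagreement between probe sets read on the same arrays. It does not measure variation between litters, dissections or arrays, for which the table holds no measure. As a check of the tissue label, the enamel gene AMBN read 59.8, 2675 and 29942 in the order of the stages, and the dental transcription factor MSX1 read 1559, 737 and 1214.

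All 5 troponin genes were bright at the cap stage and were lower by 26.3-fold or more at the bell stage. With TPM2 included, 7 of the 9 probe sets were called lower from E40 to E50 and 0 higher, where 15% of the 19132 probe sets above the floor on either array were called lower and 2.49% higher. No ratio was formed for some of these, so that 18379 had one. All 9 lay above the floor on E40. Of the 8 above the 75th percentile of that array, 6 were called lower, against 6.73% of all probe sets that bright. From E40 to E60, a comparison that uses the same E40 array, 7 were lower and 0 higher (12.3% and 4.4% of all), with 6 of the 8 bright ones lower against 7.08%. The members were chosen with earlier results of these data known, and 4 of the 9 probe sets belong to TPM2. Brightness was taken on E40, the array that both ratios share. The shares of all probe sets are therefore background and not a test of the members. The median log2 ratio of those 18379 was -0.11. Over all 19132, with the raised signals kept, the median was -0.14 as deposited, 0.25 with equal medians and 0.09 with quantile normalization. In RNA of whole germs, fewer cells of a type and less RNA per cell cannot be told apart.

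TNNC1, the calcium sensor of slow and cardiac fibres, read 3558 at the cap stage, 36.7 at the bell stage and 17.6 at the secretory stage. The cap-stage array stood far above the others, and the last signal was below the floor. The E50 signal was 96.8-fold lower than the E40 signal, and the E60 signal was at least 163-fold lower than the E40 signal.

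TNNC2, the calcium sensor of fast fibres, read 3493, 112 and 117 in the same order. The cap stage was high, and the later arrays were close to each other. The drop to E50 was 31.2-fold. The ratio of E60 to E50 was 1.04, and its direction turned with the arrays scaled to equal medians or quantile normalized.

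TNNI1, the inhibitory subunit of slow fibres, read 2504, 20.2 and 1.98. The bell-stage signal was just above its floor and the secretory-stage signal was below it. TNNI1 was 124-fold lower at E50 than at E40, and 8 of the 18379 had a lower ratio. Against E40, E60 was at least 115-fold lower.

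TNNI2, the inhibitory subunit of fast fibres, read 1559, 59.2 and 28.3, all above the floor. The signals decreased at each stage. The first step was 26.3-fold and the second 2.09-fold, and TNNI2 was the 1 member called lower from E50 to E60, where 1.84% of all probe sets were called lower. The log2 ratio of that second step, -1.07, stands beside the SD of 0.58 between probe sets of the same gene, which leaves out variation between pools. TNNI2 was not among the 2 member probe sets above the 75th percentile of the E50 array, which belong to TPM2. Of these, 0 were called lower (1.02% of all probe sets that bright), and 2 probe sets are too few to compare with that share.

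TNNT3, the tropomyosin-binding subunit of fast fibres, read 1309, 2.69 and 3.73. Both later signals were below the floor. It was at least 76.0-fold lower at E50 than at the cap stage, which is -6.25 on the log2 scale, the bound at E60 was a log2 ratio of -5.91, and no ratio of E60 to E50 was formed.

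TPM2, beta-tropomyosin, gave different answers on its 4 probe sets. The probe set Ssc.20571.2.S1_at read 2823, 54.4 and 57.6. It was shaped like the troponins, with a high cap stage and low later stages. It was 51.9-fold lower at E50 and 49.0-fold lower at E60 than at E40.

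The probe set Ssc.20571.2.S1_a_at, whose name holds the same number 20571.2, read 2478, 1311 and 1722. Which transcripts either probe set reads was not examined. It stayed within 2-fold in every comparison, at 1.89-fold lower from E40 to E50. The probe set Ssc.20571.1.S1_a_at read 870, 724 and 1063 and also stayed within 2-fold, at 1.20-fold lower from E40 to E50, a direction that turned with equal medians. The suffix _a_at marks a probe set that can match several transcripts of the same gene.

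The dimmer probe set Ssc.9236.1.A1_at read 184, 37.0 and 90.6. It was low at the bell stage and in between at the secretory stage. It was 4.98-fold lower at E50 than at E40, and from E50 to E60 it was 2.45-fold higher, the 1 member called higher in that step (6.24% of all probe sets). With the floor at the 50th percentile its log2 ratio from E40 to E50 was -0.56, no longer called, and 6 of the 9 members were called lower. Its call from E40 to E60, 2.03-fold lower, was lost with equal medians, quantile normalization or housekeeping scaling.

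**Figure D1:**
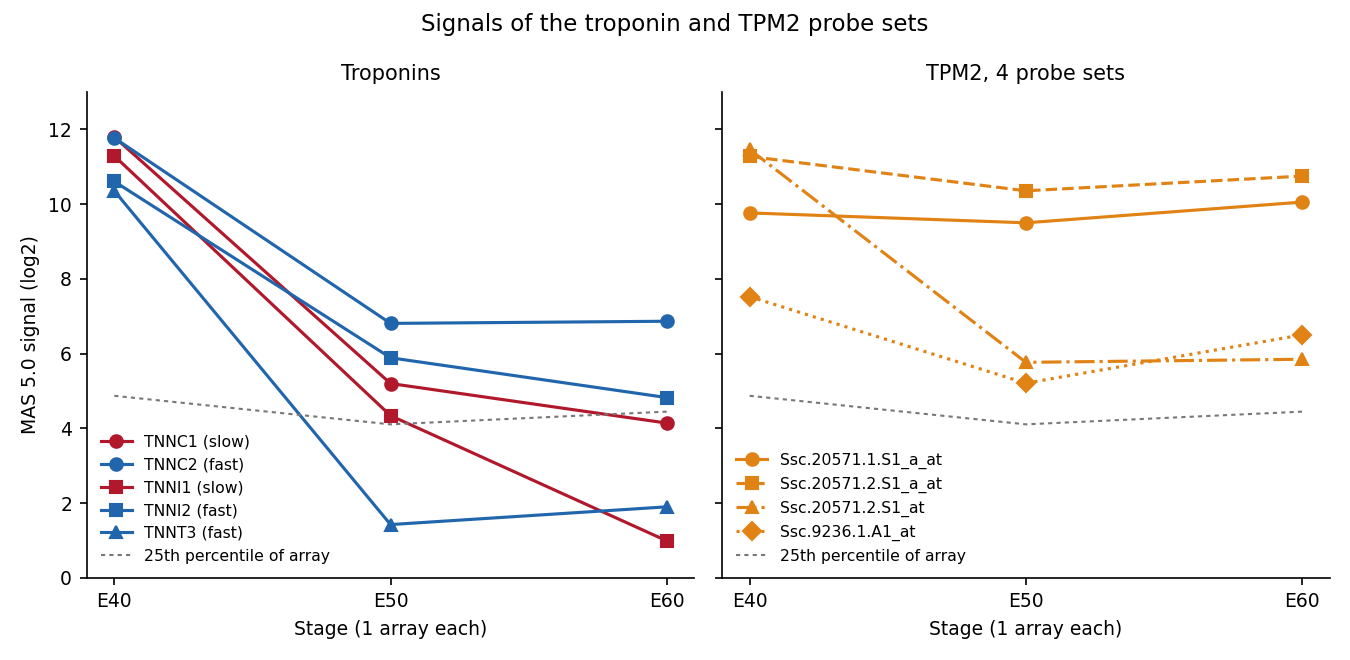
Log2 MAS5 signal (vertical axis) by stage (horizontal axis, a single array per stage and hence no error bars) for the troponins, slow in red and fast in blue, and the TPM2 probe sets in orange. The grey dashed line is the floor of each array. The troponins drop after E40, as does the TPM2 probe set Ssc.20571.2.S1_at (2823 to 54.4), while Ssc.20571.2.S1_a_at stays between 1311 and 2478.

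Among the 1596 genes with several measured probe sets, TPM2 had the widest span between them from E40 to E50. Its log2 ratios ran from -5.70 to -0.26, a span of 5.43. The median span of the 1596 genes was 0.43, and it was under 1 in 82.3% of them. The next gene was ACTG1, cytoplasmic gamma-actin, with a span of 5.13, named after its values were seen. From E40 to E60 the TPM2 span was 5.90, again the widest of 1596. From E50 to E60 it was 1.21, a width that 109 of 1625 genes reached.

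TPM3, which encodes slow-muscle alpha-tropomyosin and, by other transcripts, tropomyosins of many cells, also had probe sets that differed. Its probe set Ssc.24590.1.S1_at read 214, 36.9 and 43.1, which is 5.81-fold lower from E40 to E50. Its brighter probe sets read 7592, 8199 and 7234 for Ssc.1829.1.S2_at and 4920, 4662 and 3937 for Ssc.1829.1.S1_at, within 2-fold throughout and with directions that turned between scalings from E40 to E50. The span of TPM3 was 2.65, which 21 of 1596 genes reached.

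TPM4 and TPM1 were bright and within 2-fold on their brightest probe sets. TPM4, a tropomyosin of non-muscle cells, read 12059, 17634 and 15473 on its brightest probe set. TPM1, alpha-tropomyosin of muscle and many other cells, read 12215, 12971 and 13161 on its brightest. From E40 to E50 the spans between their probe sets were 0.16 for TPM4 and 0.51 for TPM1. The dim TPM1 probe set Ssc.12185.1.A1_at read 43.4, 41.0 and 108, which is 2.64-fold higher from E50 to E60, and with it the span of TPM1 was 1.48 in that step, wider than that of TPM2, and 1.82 from E40 to E60.

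**Figure D2:**
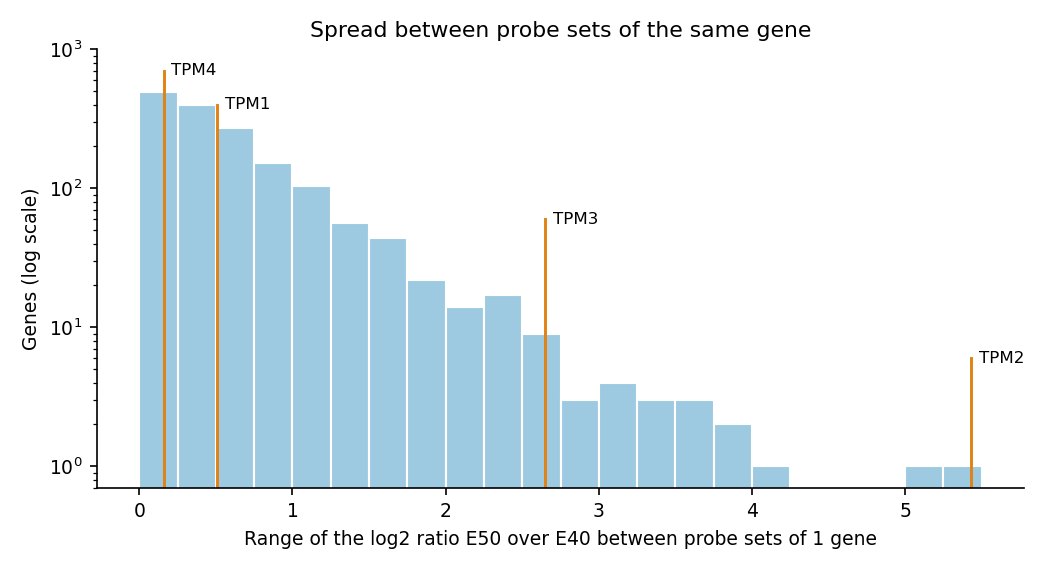
Number of genes (vertical axis, log scale) by the range of the log2 ratio of E50 to E40 between measured probe sets of the same gene (horizontal axis), over 1596 genes. Orange lines mark the tropomyosins, with TPM2 the farthest out at 5.43, TPM3 at 2.65, TPM1 at 0.51 and TPM4 at 0.16.

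The troponins outside the member list were TNNT1, TNNT2 and TNNI3. TNNT1, slow troponin T, read 2419, 140 and 119 and was 17.3-fold lower at E50 than at E40. TNNT2, the cardiac troponin T that embryonic skeletal muscle also uses, read 930, 3.30 and 2.40 and was at least 54.0-fold lower. TNNI3, cardiac troponin I, read 238, 224 and 192 and stayed within 2-fold, with a log2 ratio from E40 to E50 of -0.09 as deposited that was above 0 under each other scaling.

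Troponin I and T genes lie close to each other in the pig assembly Sscrofa11.1, used here for gene order only. TNNI2 and TNNT3 have 2 annotated genes between them, TNNT2 and TNNI1 have 1, and TNNT1 and TNNI3 have 0. Both genes were called lower from E40 to E50 in the first couples. In the last, TNNT1 was 17.3-fold lower while TNNI3 was 1.06-fold lower.

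**Figure D3:**
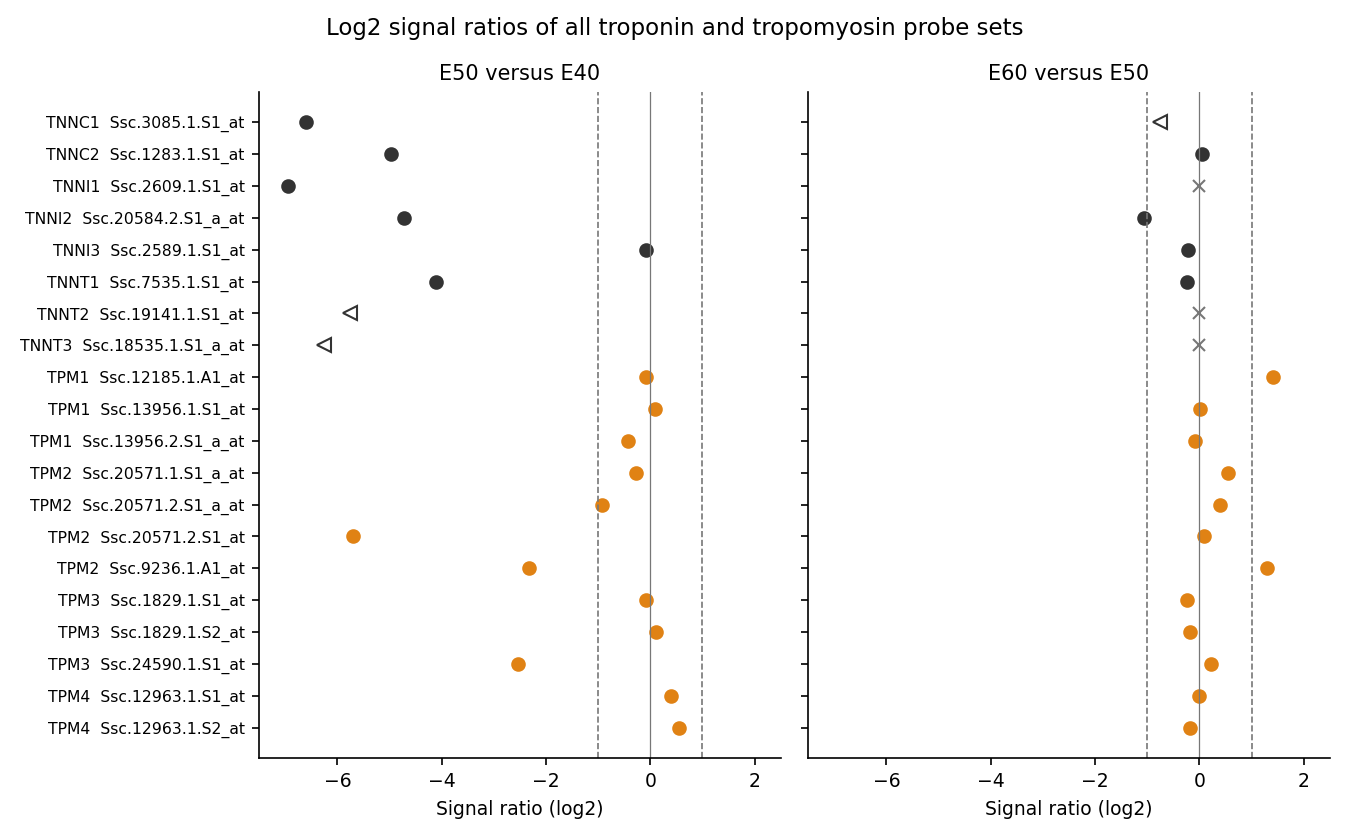
Log2 ratio of signals (horizontal axis) of each troponin (black) and tropomyosin (orange) probe set (vertical axis), E50 against E40 at left and E60 against E50 at right. Open triangles are bounds, a grey cross at 0 stands for a ratio that was not formed, and dashed lines mark 2-fold. The troponins except TNNI3 and the TPM2 probe set Ssc.20571.2.S1_at lie at -4.11 or lower at left.

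The slow gene had the larger drop for troponin C and troponin I, and the fast gene for troponin T. From E40 to E50 the log2 ratio was -6.60 for slow TNNC1 and -4.96 for fast TNNC2, a difference of -1.64. It was -6.95 for slow TNNI1 and -4.72 for fast TNNI2, a difference of -2.23. For troponin T it was -4.11 for slow TNNT1 and, as a bound, -6.25 for fast TNNT3, so the slow gene lay at least 2.13 above the fast one.

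Of 2896 couples of probe sets of the same gene, 5.32% were as far apart as the troponin C genes, 2.42% as far as the troponin I genes and 2.80% as far as the troponin T genes. These couples were of any brightness above the floor, and genes with more probe sets gave more of them. The E50 signals of TNNI1 and TNNT3 were near or below the floor. The shares are therefore not p-values, and the slow and fast genes were not tested against each other. From E40 to E60 the differences were -2.44 for troponin C, -1.06 for troponin I and 1.56 for troponin T, each with a bound on the gene that dropped further. With the floor at the 50th percentile the troponin C difference from E40 to E50 was -0.026 and the troponin I difference was -0.68. The E50 signals of these genes are then all raised to the same floor. These values therefore reflect only the E40 signals of different probe sets.

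**Figure D4:**
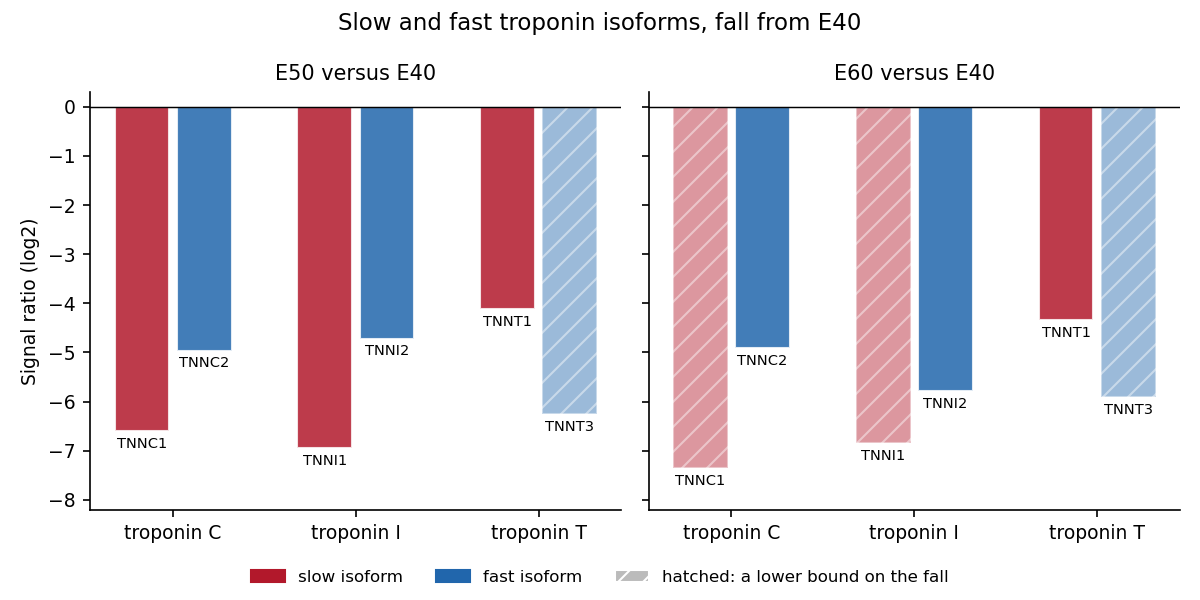
Log2 ratio (vertical axis, bars from 0) of the slow (red) and fast (blue) gene of each troponin subunit (horizontal axis), for E50 and for E60 against the same E40 array. Hatched bars are bounds. At E50 the slow bar is longer for troponin C (-6.60 against -4.96) and troponin I (-6.95 against -4.72), and the fast bar for troponin T (-6.25 against -4.11).

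Most genes of wider slow-fibre and fast-fibre lists were lower as well. The gene lists used here overlap, so their counts are not independent. MYLPF and ENO3 are in both the fast-fibre and the skeletal-muscle list, and NEB in both the thin-filament and the skeletal-muscle list. The slow-fibre list holds the troponin TNNT1. From E40 to E50, 6 of 9 measured slow-fibre genes were called lower and 0 higher, with a median log2 ratio of -3.15. Of 6 measured fast-fibre genes, 5 were lower and 0 higher, with a median of -3.16. From E40 to E60 the medians were -2.80 for slow and -2.42 for fast fibre. Without probe sets whose suffix marks a shared match, the slow-fibre median from E40 to E50 was -2.28, and from E40 to E60 the medians were -1.93 and -3.74. The difference between the lists was not tested. MYL2, the slow regulatory myosin light chain, went from 4658 to 44.9 (104-fold), and MYLPF, its fast counterpart, from 8766 to 60.9 (144-fold). PGAM2, muscle phosphoglycerate mutase, went from 781 to 56.4 (13.8-fold). FHL1, a LIM-domain protein, read 2724 and 3752 and CA3, a carbonic anhydrase, 897 and 1578, both within 2-fold. The fast-fibre gene within 2-fold was ENO3, muscle enolase, at 430 and 234. From E40 to E60, 6 of the 9 slow-fibre genes were called lower and 1 higher, CA3, which read 1913 at E60 (2.13-fold).

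Other genes of the thin filament and of calcium handling were lower as well. Of 11 measured, 9 were called lower from E40 to E50 and 0 higher, with a median of -3.85. NEB, nebulin, a giant protein along the thin filament, went from 3494 to 23.3 (150-fold). ACTC1, cardiac alpha-actin, which early skeletal muscle also makes, went from 11061 to 144 (76.6-fold) and on to 32.2 at E60. SLN, sarcolipin, a regulator of the calcium pump, was 15.6-fold lower, LMOD3, which helps to build thin filaments, 14.4-fold, and TMOD1, which caps their pointed ends, 3.79-fold.

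ATP2A2, a calcium pump of slow muscle, heart and many other cells, read 4430 and 3060 on its brightest probe set, within 2-fold. Its probe set Ssc.22641.3.S1_at, named after its values were seen, went from 123 to 27.1. From E50 to E60, 1 of the 5 genes with a ratio was lower, ACTC1 (4.49-fold), and 0 were higher, with a median of -0.098.

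Markers of skeletal muscle moved with the troponins. Of 30 listed, 19 were named on the array, and of 18 measured from E40 to E50, 17 were lower and 0 higher (median -3.89). Their summed signal was 29578 at E40, 1152 at E50 and 4168 at E60. MYL1 alone made up 7116, 481 and 3266 of these sums, so the sum at E60 was mostly that of a single gene. MYH2, a fast myosin heavy chain, was below the floor on every array (3.04, 1 and 2.58). The part of muscle in the pools in the drop of the troponins was not tested.

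From E50 to E60, 3 of the 11 markers with a ratio were called higher and 0 lower, where 6.24% of all probe sets were called higher. They were MYL1, an essential myosin light chain, from 481 to 3266, CHRNA1, an acetylcholine receptor subunit, from 28.5 to 228, and DES, desmin, from 18.4 to 45.3. From E40 to E60, 16 of the 18 markers measured were called lower and 1 higher, CHRNA1, from 93.0 to 228 (2.46-fold). Of the troponins, 3 of the 5 had a ratio from E50 to E60 and 0 of these were called higher.

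Actin-cytoskeleton genes that most cells use stayed level. Of the 12 with a ratio from E40 to E50, 0 were called in either direction, with a median of 0.15. ACTB, beta-actin, read 14888 and 12513, and CFL1, cofilin, which severs actin filaments, read 10226 and 11270. ACTG1 read 20289 and 19338 on its brightest probe set, whereas its probe set Ssc.13874.2.A1_s_at, of a type that can match other genes too, went from 2061 to 93.7. The 12 housekeeping genes had a median of 0.01 with 0 called.

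Smooth-muscle genes, another possible source of TPM2, did not move in a single direction. Of 8 measured from E40 to E50, 2 were lower and 2 higher, with a median of 0.35. ACTA2, smooth-muscle alpha-actin, read 2674 and 944 (2.83-fold lower), and the other lower gene was DES, which striated muscle also makes. TAGLN, transgelin, read 1564 and 3215 (2.06-fold higher) and ACTG2, enteric gamma-actin, 354 and 1785 (5.04-fold higher). CALD1, caldesmon, read 6840 and 6849. Which cells gave the level TPM2 signals was not tested.

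Of 8 cardiac markers 5 were named on the array. Beside TNNT2 and TNNI3 they were NPPB, a natriuretic peptide, at 42.8, 31.8 and 47.3, GATA4, a transcription factor below the floor on each array, and NPPA, atrial natriuretic peptide, below the floor at E40 and E50 and at 35.0 at E60.

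Genes of keratinised epithelium were also lower after E40. Of 6 measured from E40 to E50, 5 were lower and 0 higher (median -4.10), and the summed signal of the 7 named genes was 15368, 3737 and 4203 over the stages. SPRP, a proline-rich epithelial gene, went from 4321 to 45.3 (95.4-fold), and FABP5, an epidermal fatty acid carrier, from 4372 to 1839 (2.38-fold). KRT10, a keratin of differentiated epidermis, read 1321 and 1714, and KRT1 was below the floor on every array. The part of such epithelium in the differences between the arrays was not tested.

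**Figure D5:**
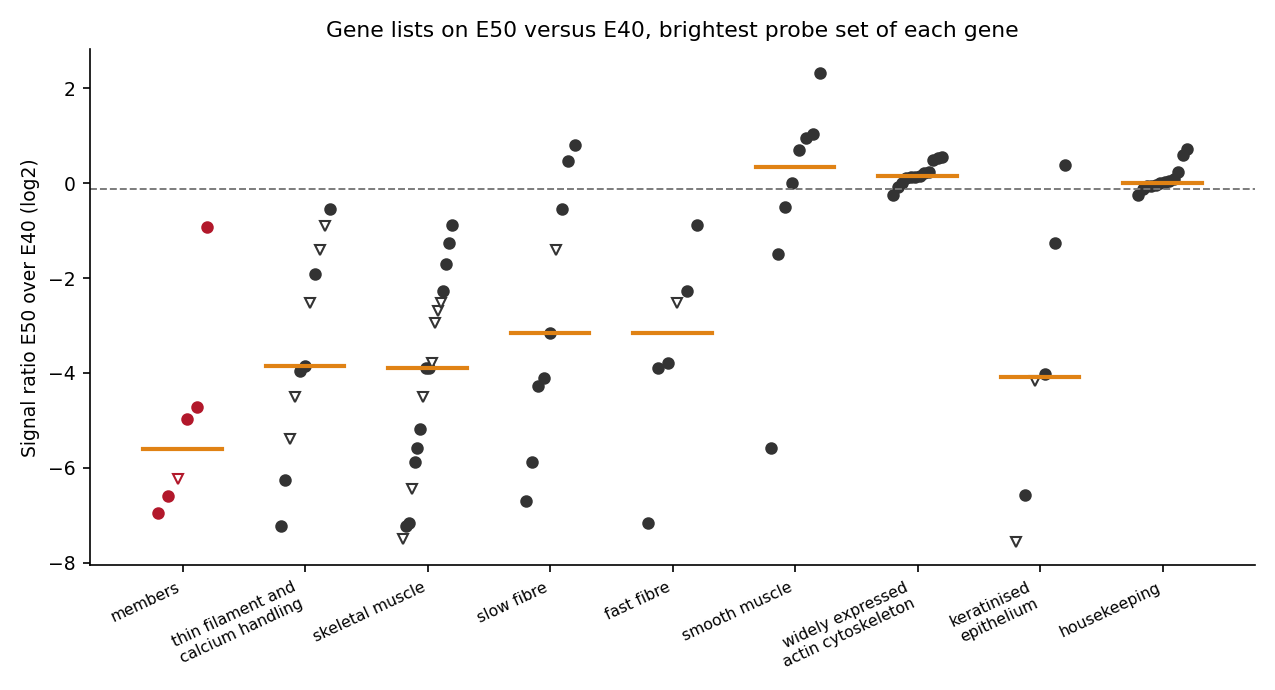
Log2 ratio of E50 to E40 (vertical axis) of the brightest probe set of each gene, by list (horizontal axis), with the troponins and TPM2 in red. Open triangles are bounds, orange bars are list medians, and the grey dashed line is the median of all probe sets with a ratio (-0.11). The thin-filament, skeletal-muscle, slow-fibre, fast-fibre and keratinised-epithelium medians lie far below that line (skeletal muscle -3.89). Those of smooth muscle (0.35) and of the widely expressed actin-cytoskeleton genes (0.15) lie above it.

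The profiles closest to the members were found by the root mean square distance of log2 signals over the 3 arrays. Each profile was centred on its own mean with signals raised to the floor, and 8908 probe sets were compared. With 3 points this only describes shape. Nearest to TNNC1 were MYL2 (0.08), MYLPF (0.24) and NEB (0.30). Nearest to TNNC2 were CKM, muscle creatine kinase (0.17), C1QTNF3, a secreted protein (0.18), and KLHL41, a muscle protein that binds nebulin (0.18). Nearest to TNNI1 were NEB (0.20), SPRP (0.20) and TTN, titin (0.23).

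Nearest to TNNI2 were SMPX, a small muscle protein (0.30), CST6, an epithelial protease inhibitor (0.32), and SERPINB11, a serpin (0.34). Nearest to TNNT3 were MYOT, a protein of the Z-disc (0.13), MYBPC1, myosin-binding protein C (0.15), and SPRP (0.20). Both muscle genes and keratinised-epithelium genes thus stood among the nearest profiles. Signals raised to the floor can make profiles look alike. Both later signals of TNNT3, KLHL41 and TTN were below the floor. So were the E60 signals of TNNC1, TNNI1, NEB, MYBPC1 and SMPX, and the E50 signal of MYOT.

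The TPM2 probe set Ssc.20571.2.S1_at was closest to LOC100515166 (0.03), MYBPC1 (0.07) and TNNT2 (0.11), and 6 probe sets lay within 0.25 of it. Both later signals of TNNT2 and the E60 signal of MYBPC1 were raised to the floor, so their distances depend on it. Within the same distance lay 1455 probe sets for Ssc.20571.2.S1_a_at, with TCHP, MAP7D3 and ATRIP nearest, and 2368 for Ssc.20571.1.S1_a_at, with PNPLA4, CAV2 and ANGPT2 nearest. For Ssc.9236.1.A1_at there were 55, with TAF1D, COL5A3 and CARTPT nearest, the E50 signals of TAF1D and COL5A3 being below the floor. These counts follow from the size of each change, since large falls are rare on the array. They show nothing particular to TPM2.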

How the data were processed

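RNA was labelled with a 3′ kit and hybridised to 1 array per stage. The authors computed MAS5 signals in GeneSpring, and the deposited values are on the log2 scale. The mean signal, computed here without the outer 2% at either end, was 495 on each array. Of 24123 rows, 124 array controls were left out. The platform table gave 1 symbol to 10069 probe sets, several to 198 and none to 13732, and 9961 of the first matched a RefSeq gene table by gene ID, which changed 0 symbols. The probe set brightest on average stood for a gene where a single value was needed.

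Members and gene lists were chosen with earlier results of these data known. Named genes were the members, the other troponins and tropomyosins, up to 6 of the brightest genes of the thin-filament list and up to 4 of each other list, and the 3 nearest profiles of each member. DES, CHRNA1, ACTG2, MYH2, NPPA and KRT1, and probe sets of ACTG1 and ATP2A2, were named after their values were seen. Promoter motifs were not analysed here. The calling steps were tested on simulated data. Alternatives changed the floor, scaling, threshold and choice of probe sets. With 1 array per stage the number of arrays limits the precision. Python 3.11.15, numpy 2.4.6 and pandas 2.3.3 were used.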

Additional observations from a re-analysis of the deposited data

How the results depend on the processing

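No paired analysis was possible because each stage has 1 array, and for the same reason no replicate could be left out. No called result changed direction under the floor, scaling, threshold and probe-set alternatives, while the directions of several ratios within 2-fold turned with the scaling, as given beside them. A value counted as kept within 1.5-fold of the one reported. Of 120 values of member genes 104 were kept, of 37 slow-minus-fast differences 33, of 48 counts of members 41, and of 192 list medians, which here include signals raised past the other array's, 169. Low signals limit the size of the drops, since the later signals of TNNC1, TNNI1 and TNNT3 lie near or below the floor.

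All values that follow are log2 ratios or their medians unless called counts, given for E50 versus E40 and then E60 versus E40. With the floor at the 50th percentile TNNC1 was -4.83 and -4.75, TNNI1 -4.32 and -4.25, TNNI2 -3.64 and -3.56, and TNNT3 -3.39 and -3.31. The slow-minus-fast difference was -0.026 and -0.026 for troponin C, and -0.68 for troponin I at E50. List medians were then -2.23 and -2.02 for the thin filament, -2.87 and -2.15 for skeletal muscle, -2.57 and -2.52 for keratinised epithelium, -2.49 for slow fibre at E50 and -1.12 for fast fibre at E60. From E50 to E60 they were 1.45 for fast fibre, against -0.32 with the floor at the 25th percentile, and 0.87 for skeletal muscle.

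With no floor TNNT3 was -8.93 and -8.45, and TNNI1 at E60 was -10.30, where the troponin I difference was -4.52. List medians with no floor were -4.57 for the thin filament, -4.11 for slow fibre, -3.79 for fast fibre and -4.87 for skeletal muscle at E50, and -5.78 for keratinised epithelium at E60. With a common floor TNNT3 was -5.48 and the thin filament -3.16 at E50. Without probe sets whose suffix marks a shared match, TPM2 was -5.70 and -5.61, slow fibre -2.28 and -1.93, and at E60 fast fibre -3.74 and keratinised epithelium -3.82. With the mean over a gene's probe sets TPM2 was -2.30 and -1.72, and at E60 slow fibre was -3.45, skeletal muscle -2.64 and keratinised epithelium -4.02. The count of members called lower from E50 to E60 (1) was 3 with no floor, 2 with quantile normalization, and 0 with the floor at the 50th percentile or with a 3-fold threshold. It was also 0 without shared-match suffixes, a setting that leaves out the only probe set of TNNI2. The count called higher (1) was 0 with that floor or that threshold.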
